A study of Mus musculus with 18 samples.

Results

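The comparison set 8 arrays of lymphomas against 5 arrays of control thymus, out of 18 arrays in the series, and the members were taken by the sample titles. Each array held total RNA of 1 mouse, and the mice were independent per the design text. The tumours came from CD4Cre-ctnnbex3 animals with lymphoma. In these mice Cre recombinase, expressed from Cd4 regulatory sequences and so in thymocytes and their T-cell descendants, removes exon 3 of Ctnnb1, the part of beta-catenin that marks it for destruction. The controls are labelled wild type in the sample labels and LckCre in the design text, where Cre comes from the promoter of an early thymocyte kinase. The sources do not settle which applies, so these mice are called controls. The sources used here give no ages. The groups differ in the altered allele, in transformation and in the presence or promoter of Cre. The part of each cannot be told apart by this comparison. Levels in the other 5 mice of the series, which carry the same allele before transformation, are given beside some results. They are given as values or counts without a test, since any comparison with them would share these samples.

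Beta-catenin is the transcriptional effector of canonical Wnt signalling. A destruction complex built on Axin and Apc phosphorylates it through Gsk3 and casein kinase, and without that step it accumulates, enters the nucleus and acts with DNA-binding partners of the TCF/LEF family. Thymocytes pass from a double-negative stage, driven by Notch and the pre-T-cell receptor, to a double-positive stage that rearranges the T-cell receptor alpha gene with the RAG recombinase. Cells that pass selection become single-positive, stop recombining and leave the thymus.

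The values are deposited intensities, called signal below. Low values were set to a floor of 53.5, so a signal of 53.5 means at or below that level. Median signal was 125 to 161 over the 13 arrays. The first principal component (52.8% of the variance) placed the controls at -54.3 to -45.6 and the lymphomas at 14.5 to 49.1. On the second (16.4%) lymphomas 1 and 2 stood apart at 55.1 and 44.9, with the other lymphomas between -20.3 and -6.28. Spike-in probe sets detect bacterial bio and phage P1 cre control transcripts, which are added already labelled at hybridization. They averaged 9.95 to 10.68 on the log2 scale in lymphomas and at least 10.75 in controls. By Xist and Eif2s3y, controls 1 and 2 and 6 tumours read as female, controls 3, 4 and 5 and lymphoma 3 as male, and lymphoma 4 as both. The part of these differences in the results below was not tested beyond the alternatives named.

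Lymphomas differed from control thymus in a large share of the transcriptome. Of 14019 genes tested with limma, 5619 (40.1%) passed a Benjamini-Hochberg adjusted p of 0.05, of which 2435 (17.4% of those tested) were higher and 3184 (22.7%) lower in lymphomas. A log2 difference of at least 1 was reached by 571 of the higher (4.07% of genes tested) and 872 of the lower genes (6.22%). In 2832 genes (20.2%) the values of the groups did not overlap, with every lymphoma above every control in 1151 (8.21%) and below in 1681 (12%). The balance of higher and lower calls moved with the scaling of the arrays: it was 3581 to 2550 after quantile normalization and 3061 to 2368 after centring each array on its median. Those settings moved the median difference of all genes from -0.03 to 0.08 and 0.06. The counts in gene lists below are to be read against the shares of all genes, 17.4% higher and 22.7% lower. Among mice numbered 1 and 2 alone (2 against 2) 3973 genes passed, and among those numbered 3 and up (6 against 3) 5847. Mice with female signals alone (6 against 2) (added once the data had been seen) gave 1935 passing genes, of which 1901 also passed in the same direction over all mice.

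**Figure D1:**
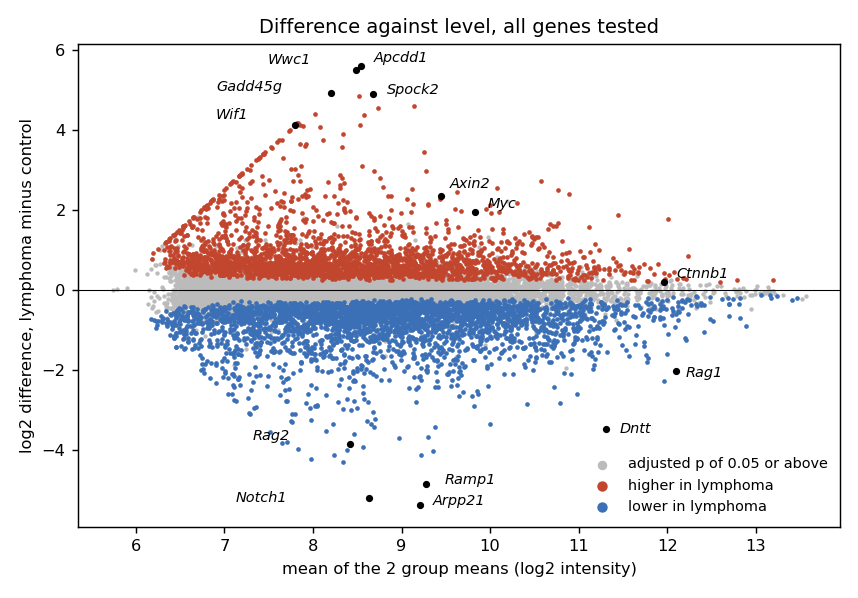
Log2 difference of lymphoma minus control (vertical axis) against the mean of both group means in log2 intensity (horizontal axis) for the 14019 genes tested, coloured where the adjusted p was under 0.05. The straight edges at low levels are genes at the floor in one group; Apcdd1 at 5.59 and Arpp21 at -5.37 mark the extremes.

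The 12 largest rises among genes without overlap included the Wnt inhibitors Apcdd1 and Wif1 together with surface, matrix and scaffold proteins. Apcdd1, a membrane-bound inhibitor of Wnt receptors, lay at the floor in all 5 controls and read 1014 to 4804 (median 2731) in the lymphomas, at least 48.3-fold higher. Wwc1, a scaffold of the Hippo pathway, was likewise at the floor in every control and read 2001 to 3728 (median 2262) in the tumours (at least 45.1-fold). Gadd45g, a stress-response gene, went from the floor in all controls to 744 to 4003 (median 1657) (at least 30.4-fold). No tumour was near the floor for any of these 3 genes. Spock2, a proteoglycan of the extracellular matrix, read 68.1, 94.3, 68.8, 103 and 53.5 in controls 1 to 5 and 1350.2 to 3452 (median 2253) in lymphomas, 29.7-fold higher. Cadm4, an adhesion molecule of the immunoglobulin family, was 28.7-fold higher, Igfbp7, a secreted binding protein, 24-fold, and Pou2af1, a coactivator of octamer-binding factors best known from B cells, 23.3-fold. Cpeb1, a translational regulator acting on poly(A) tails, rose at least 21.1-fold, Hemgn, a nuclear protein of blood cells, 20.8-fold, Inava at least 17.9-fold, the adenylate kinase Ak5 at least 17.8-fold and the secreted Wnt inhibitor Wif1 at least 17.4-fold. The adjusted p of these 12 genes ran from 3.75e-13 for Wwc1 to 0.00018 for Wif1. Wif1 varied most among them, from 103 in lymphoma 1 to 3519.7 in lymphoma 3. Lymphoma 1 was the highest tumour for 7 of the 12 and lymphoma 7 the lowest for 5. In mice before transformation, 6 of the 12 genes also lay above every control in every mouse. The 12 were chosen for their separation from these same controls, and the share of all genes that did so was not counted. Among the 6 were Cadm4 at 2667 to 4792 (median 3559) and Wwc1 at 1061 to 1939 (median 1651), whereas Ak5 read 53.5 to 97.1 (median 60.7) and Igfbp7 140.5 to 267 (median 216).

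The 12 largest falls included genes that mark thymocytes in the double-positive stage. Arpp21, an RNA-binding phosphoprotein abundant in double-positive thymocytes, read 3543, 3500.2, 4270.4, 4103 and 3596 in controls 1 to 5 and 53.5 to 454 (median 71.4) in lymphomas, 41.2-fold lower. Notch1, the receptor that commits progenitors to the T lineage, read 2514, 2551, 2403, 2283 and 2215 in controls and reached the floor in most tumours, with 53.5 to 103 (median 53.5) (at least 36.5-fold lower). Both of its probe sets passed, with log2 differences of -5.19 and -4.14. Ramp1, a partner of calcitonin-family receptors, was 28.7-fold lower, the aquaporin Aqp11 at least 19.7-fold and Dhrs3, a retinaldehyde reductase, at least 18.6-fold. Ptprf, a receptor tyrosine phosphatase, was 17.5-fold lower, the G-protein-coupled receptor P2ry10 at least 17.4-fold, the lymphoid surface protein Ly6d 16.3-fold and Cd96, an adhesion receptor of T and NK cells, 16.1-fold. Chrna9, a nicotinic receptor subunit, fell at least 15.7-fold, Abi3 15.1-fold and the recombinase gene Rag2 at least 14.3-fold. The adjusted p ran from 2.13e-11 for Dhrs3 to 6.74e-05 for Ly6d. Lymphoma 7 was the highest tumour for 6 of these 12 genes. In mice before transformation 10 of the 12 lay below every control in every mouse. These 12 too were chosen for their separation from the same controls, and the share of all genes was not counted. RNA came from whole thymocyte or tumour samples, so fewer cells of a type and less RNA per cell cannot be told apart here or below.

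**Figure D2:**
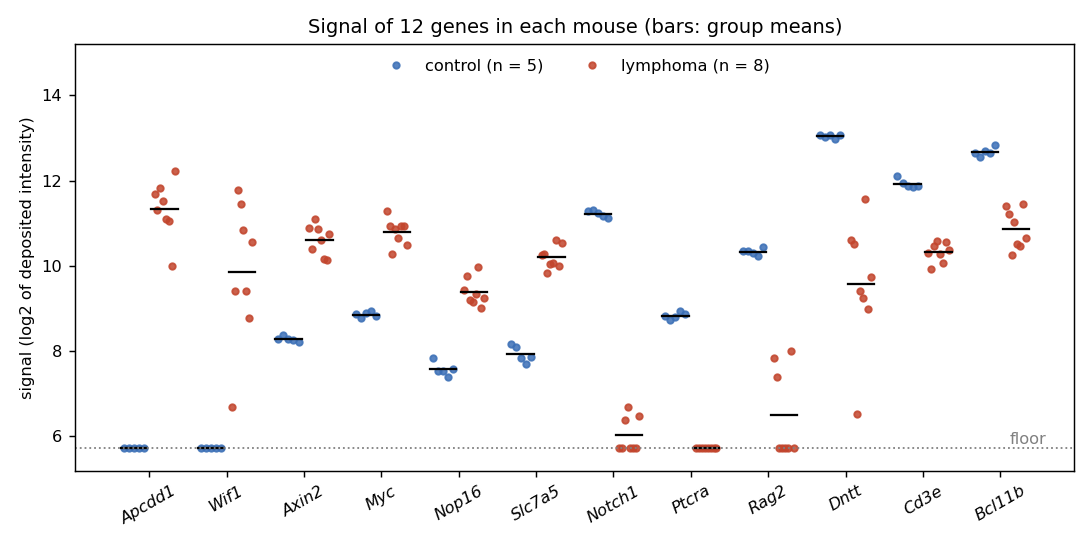
Log2 of the deposited intensity (vertical axis) of 12 genes in each of 5 controls and 8 lymphomas, with bars at the group means and a dotted line at the floor. The groups do not overlap for any of the 12, and Wif1, Rag2 and Dntt spread most widely among the tumours.

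Of 21 feedback inhibitors and common targets of Wnt signalling tested, 9 rose (42.9%, against 17.4% of all genes) and 2 fell, with a median difference of 0.46 against -0.03 over all genes. Axin2, which rebuilds the destruction complex and is a widely used target of beta-catenin, read 312, 331, 311, 305 and 295 in controls 1 to 5 and 1129.9 to 2208 (median 1636) in lymphomas. The groups did not overlap, and the difference was 2.33 ± 0.15 on the log2 scale (SE here and below; 5.04-fold, limma adjusted p = 4.96e-08). Its second probe set gave 2.41. Nkd1, an inhibitor of Dishevelled, read 165, 176, 164, 178 and 183 in controls and 348 to 992 (median 754) in tumours (1.97 ± 0.22, adjusted p = 6.9e-06). The TNF receptor family member Tnfrsf19 rose by 1.16 ± 0.21, Znrf3, which removes Wnt receptors from the membrane, by 0.87 ± 0.20, Notum, which inactivates Wnt ligands, by 0.70 ± 0.13, and the matrix protease Mmp7 by 0.49 ± 0.14. The adhesion receptor Cd44 rose by 2.14 ± 0.32. Lef1, itself a DNA-binding partner of beta-catenin, fell by 0.46 ± 0.08, and the secreted antagonist Dkk1 fell by 0.47 ± 0.15, a call lost without control 2 or without control 4. Dkk4 differed by -0.14 ± 0.19 (adjusted p = 0.586). Sp5, a transcription factor induced by Wnt, lay at the floor in all controls and in 3 tumours, read up to 775 and did not pass (adjusted p = 0.0723). Within mice 1 and 2 alone 5 members rose and 1 fell.

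Ctnnb1 itself read 3949, 3873, 3983, 3566 and 3282 in controls and 3181 to 6133 (median 4029.9) in lymphomas, with 4 tumours above all controls and 1 below. The difference of 0.20 ± 0.14 did not pass (adjusted p = 0.27). It passed after quantile normalization, at 0.35, and with another probe set, at 0.66. Transcript signal says nothing about deletion of exon 3 and is no check of the labels. Among 19 genes of the destruction complex and of beta-catenin's nuclear partners 2 rose and 7 fell, with a median of -0.22. Ctnnbip1, which blocks the binding of beta-catenin to TCF factors, read 332, 345, 282, 284 and 294 in controls and 565 to 771 (median 643) in tumours (1.10 ± 0.11, adjusted p = 2.7e-06). The co-repressor Tle1 rose by 0.42 ± 0.12. The co-activators Bcl9 and Bcl9l fell by 0.67 ± 0.10 and fell by 0.76 ± 0.13, and the kinase Gsk3b fell by 0.64 ± 0.16. Tcf7l2 and Apc fell by 1.23 ± 0.23 and fell by 0.65 ± 0.16 with the probe sets used, while another probe set of each passed in the other direction (0.47 and 0.46). Btrc, a ubiquitin ligase subunit that recognises beta-catenin, fell by 0.64 ± 0.19 with the probe set used, not so without control 5, and rose by 0.54 with another. The co-repressor Tle2 fell by 0.57 ± 0.20, a call lost without control 1, 3 or 4 or lymphoma 3, 4, 7 or 8, and Tle4 differed by 0.06 ± 0.16 (adjusted p = 0.794).

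Myc, a transcription factor that drives cell growth, was higher in every tumour than in any control. It read 467, 437, 475, 488 and 456 in controls 1 to 5 and 1249.8 to 2489 (median 1906) in lymphomas (1.94 ± 0.14, 3.83-fold, adjusted p = 1.09e-07), and 132 to 517 (median 199) in mice before transformation. Max, its dimer partner, read 604, 533, 427, 439 and 341 in controls and 643 to 1021 (median 811) in tumours (0.79 ± 0.14, adjusted p = 0.000554). Mycl rose by 0.75 ± 0.17, and Mycn differed by 0.05 ± 0.16 (adjusted p = 0.808). Mlxip, of the related network that senses glucose, fell by 0.63 ± 0.10. Over the 14 network genes tested 3 rose (21.4%, against 17.4% of all genes) and 2 fell (14.3%, against 22.7%), with a median of -0.20. These shares were not far from those of all genes, and the majority turned to falling in 5 of 33 alternatives. Without control 1 or without control 2 only 1 member fell.

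Genes for assembling ribosomes in the nucleolus rose together. Of 40 members 34 rose (85%, against 17.4% of all genes), and 1, the RNA acetyltransferase Nat10, fell with the probe set used but rose by 0.63 with another. The median difference was 0.82 against -0.03, and 19 to 35 members rose in each alternative. Tsr1, a maturation factor of the small subunit, read 618, 541, 438, 369 and 523 in controls 1 to 5 and 1462 to 3289.5 (median 2090.1) in lymphomas (2.03 ± 0.18, adjusted p = 9.38e-07). Nop16, a nucleolar protein, read 229, 185, 185, 168 and 193 in controls and 519.7 to 998 (median 626) in tumours (1.81 ± 0.15). Rrs1, needed for the large subunit, read 547, 506, 492, 464 and 539 and 1022 to 1344 (median 1060.3) (1.14 ± 0.10). In each of these genes the lowest tumour lay above the highest control. Rrp12 rose by 1.73 ± 0.16, the RNA helicase Ddx21 by 1.31 ± 0.14, Polr1b, a subunit of RNA polymerase I, by 1.22 ± 0.17, Dkc1, the pseudouridine synthase of small nucleolar particles, by 1.12 ± 0.15, its partner Gar1 by 0.91 ± 0.09, and the methyltransferases Nop2 and Fbl by 1.01 ± 0.11 and 0.94 ± 0.11. Nop10, another partner of Dkc1, differed by 0.03 ± 0.17 (adjusted p = 0.894). Mice before transformation read 108 to 213 (median 157) for Nop16 and 387 to 558 (median 448) for Rrs1.

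The promoters of these genes were searched because Myc and Max bind the sequence CACGTG, and those of the Wnt list because TCF/LEF factors bind ATCAAAG. Windows of 300 bases (250 before and 50 after each start) came from RefSeq on GRCm38.p6 and were found for 11195 of the tested genes, and both strands were searched, so ATCAAAG is also counted where the gene's strand reads CTTTGAT. The first motif, CACGTG, is its own reverse complement and stood in 7 of 35 ribosome assembly genes with a window (20%), in 11.3% of 1911 genes that rose, in 10.9% of 2570 that fell and in 11% of all 11195. ATCAAAG stood in 3 of 13 genes of the Wnt list (23.1%), in 2.83% of genes that rose, 3.7% of those that fell and 3.34% of all. With lists and motifs exchanged, CACGTG stood in 4 of 13 genes of the Wnt list (30.8%), a larger share than in the ribosome assembly list. ATCAAAG stood in 1 of 35 ribosome assembly genes (2.86%). The shares among rising and falling genes thus lay close to that of all genes, and both short lists rest on few matches. Matches with 10 bases on either side are shown on the gene's own strand, with the motif in capitals. They cover CACGTG in 5 ribosome assembly genes whose flanks lie inside the window. For ATCAAAG they cover all 3 genes of the Wnt list, among which Sp5 did not pass.
Tsr1 (chr11:74898094-74898119, + strand, motif from base 25 of the transcript): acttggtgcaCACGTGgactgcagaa
Pes1 (chr11:3963967-3963992, + strand, motif from base 3 of the transcript): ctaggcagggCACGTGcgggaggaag
Nop2 (chr6:125131813-125131838, + strand, motif from 60 bases before the start): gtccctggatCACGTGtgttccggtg
Wdr43 (chr17:71616222-71616247, + strand, motif from base 18 of the transcript): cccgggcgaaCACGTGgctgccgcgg
Utp4 (chr8:106893645-106893670, + strand, motif from base 16 of the transcript): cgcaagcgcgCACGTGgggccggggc
Sp5 (chr2:70474809-70474835, + strand, motif from 104 bases before the start): gcaaggccccCTTTGATcaggaaaatc
Tnfrsf19 (chr14:61038173-61038199, - strand, motif from 202 bases before the start): tgaatgggggATCAAAGtgacaaacta
Mmp7 (chr9:7692084-7692110, + strand, motif from base 5 of the transcript): gtcaggaaacATCAAAGtagctctgag
A match is a description of these letters and no evidence of binding.

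Of 22 enzymes that make polyamines and nucleotides 14 rose (63.6%, against 17.4% of all genes) and 3 fell, with a median of 0.57. Ctps, which makes CTP, read 550.1, 430.2, 383, 359 and 465 in controls 1 to 5 and 1004 to 1899 (median 1179) in lymphomas (1.53 ± 0.16, adjusted p = 3.32e-06). Cad, which starts pyrimidine synthesis, rose by 1.33 ± 0.11, Atic of purine synthesis by 1.11 ± 0.10, the spermidine synthase Srm by 1.32 ± 0.13 and Odc1, the rate-limiting enzyme of polyamine synthesis, by 1.07 ± 0.12. Against this direction Prps2, which makes the ribose phosphate donor for nucleotides, read 2978, 2862, 2952, 2801 and 2701 in controls and 510.4 to 1005 (median 765) in tumours (-1.99 ± 0.14, adjusted p = 1.13e-07). Its fall left no overlap between the groups, and the other members that fell were the thymidylate synthase Tyms (-0.99 ± 0.18) and Impdh1 of guanine synthesis (-0.76 ± 0.14). Shmt2 differed by -0.04 ± 0.11 with the probe set used, while its other 3 probe sets passed at 0.90 to 1.13.

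Among the aminoacyl-tRNA synthetases, which charge tRNAs for translation, 16 of 19 rose and none fell, with a median of 0.46. Vars read 667, 686, 662, 636 and 745 in controls 1 to 5 and 1091 to 1852 (median 1349.9) in lymphomas (0.97 ± 0.11), Kars rose by 0.83 ± 0.10, Nars by 0.79 ± 0.10 and Gars by 0.64 ± 0.10, and Farsa differed by -0.06 ± 0.10 (adjusted p = 0.655). Of 14 chaperonins and related chaperones, which fold new proteins, 11 rose and none fell, with a median of 0.42. Cct8, a subunit of the cytosolic chaperonin, read 1743, 1803, 1283, 1334 and 1705 in controls and 2785 to 3835 (median 3512) in tumours (1.16 ± 0.11, adjusted p = 1.13e-06), and mitochondrial Hspa9 and Hspd1 rose by 0.82 ± 0.12 and 0.53 ± 0.08. With female signals alone 5 synthetases and 2 chaperonins passed, and 19 ribosome assembly genes.

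Amino acid transporters rose in 6 of 14 members and fell in 1 (Slc38a2, -0.47 ± 0.16), with a median of 0.01. Slc38a2 did not pass without control 1, 2, 3 or 4, without lymphoma 2 or after quantile normalization. The number that fell was 3 without lymphoma 7, 2 without lymphoma 8 and 5 with the mouse number as block. Slc7a5, the light chain of the large neutral amino acid transporter, read 288, 272, 231, 207 and 234 in controls 1 to 5 and 917 to 1549 (median 1149) in lymphomas (2.27 ± 0.14, adjusted p = 2.01e-08). Its heavy chain Slc3a2 rose by 0.86 ± 0.11, the cationic transporter Slc7a1 by 0.95 ± 0.13 and Slc43a1 by 1.31 ± 0.17. Slc1a4, a neutral amino acid transporter, lay at the floor in all controls and read 85.8 to 509.9 (median 249) in tumours (at least 3.96-fold), and it read 1081 to 2080.4 (median 1559) in mice before transformation. Of 16 glycolysis genes 9 rose and 1 fell, with a median of 0.39, and 3 fell without lymphoma 1 or without lymphoma 7 and 2 without lymphoma 4. The hexokinase Hk2 read 120.3, 103, 114, 86.7 and 135 in controls and 255 to 505 (median 425) in tumours (1.82 ± 0.18, adjusted p = 2.22e-06), while Hk1 read 1187, 1167, 1165, 1116 and 1089.8 and 572 to 771 (median 699) (-0.76 ± 0.09). The 2 hexokinases thus moved in opposite directions without overlap. Triose phosphate isomerase (Tpi1) rose by 1.45 ± 0.15, phosphofructokinase Pfkl by 1.19 ± 0.18 and Pgam1 by 0.83 ± 0.12, whereas the lactate transporter Slc16a1 differed by 0.05 ± 0.17 (adjusted p = 0.819).

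Genes of DNA replication and mitosis passed in small numbers and in both directions. Of 36 replication genes 4 rose and 5 fell, with a median close to 0, and after quantile normalization 6 rose and 4 fell. Without control 3 or without control 4 none of them rose. Tk1, a thymidine kinase of S phase, read 1036, 1018, 719.9, 785 and 885 in controls 1 to 5 and 483 to 649.8 (median 553) in lymphomas (-0.65 ± 0.12, adjusted p = 0.00048). The ribonucleotide reductase subunit Rrm2 fell by 0.67 ± 0.14 and the clamp Pcna fell by 0.35 ± 0.09, and in both 7 of 8 tumours lay below every control. Fen1 fell by 0.39 ± 0.10 with the probe set used and passed at 0.31 with another. Cdc45 differed by 0.00 ± 0.14 (adjusted p = 0.997). Of 29 mitosis genes 2 rose and 3 fell, with a median of -0.14, and 3 rose and 2 fell after quantile normalization. Cyclin B2 (Ccnb2) fell by 0.43 ± 0.11 and Kif23 fell by 0.76 ± 0.24, while the spindle motor Kif11 differed by -0.02 ± 0.24 (adjusted p = 0.96). Without lymphoma 7 or without lymphoma 6 the number that fell was 6 and 5. None of them rose without control 3, and 1 rose without control 2, 4 or 5 or without lymphoma 3, 5 or 8.

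Regulators of entry into the cell cycle included members with large differences. Of 18 such G1 genes 3 rose and 9 fell (50%, against 22.7% of all genes), with a median of -0.36, and 1 rose without control 3, where Cdk4 did not pass. Cdkn1a, the p21 inhibitor of cyclin-dependent kinases, read 158, 188, 104, 105 and 116 in controls 1 to 5 and 257 to 1483 (median 1251) in lymphomas (2.55 ± 0.47, 5.85-fold, adjusted p = 0.000628). Cdkn1b, the related p27 inhibitor, went the other way, with 1577, 1553, 2286, 2343 and 1435 in controls and 424 to 1043 (median 734) in tumours (-1.36 ± 0.21, adjusted p = 0.000164). Neither gene overlapped between the groups. Cdkn2d, a specific inhibitor of Cdk4 and Cdk6, fell by 1.16 ± 0.14, and the pocket protein Rbl2 fell by 1.31 ± 0.14. The D-type cyclin Ccnd3 and its kinase Cdk6 fell by 1.59 ± 0.36 and fell by 1.48 ± 0.36, whereas Cdk4 rose by 0.49 ± 0.15. E2f2 fell by 0.73 ± 0.15. E2f5 fell by 0.60 ± 0.13 with the probe set used, but its other 2 probe sets passed at 0.58 and 0.42. The pocket protein Rbl1 differed by 0.11 ± 0.17 (adjusted p = 0.62).

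Of 24 double-positive stage genes 18 fell (75.0%, against 22.7% of all genes) and 2 rose, with a median of -1.33. Rag1, the catalytic recombinase subunit, read 8845, 8504, 9398, 9015 and 8602 in controls 1 to 5 and 661 to 3547 (median 2386) in lymphomas (-2.02 ± 0.30, adjusted p = 0.000115). Rag2, its partner, read 1298, 1309.6, 1252, 1210.2 and 1398 in controls and 53.5 to 258 (median 53.5) in tumours, and it was at the floor in 5 of 8. Dntt, which adds untemplated bases at the joints, read 8555, 8282, 8609.8, 8065 and 8641 and 91.7 to 3029 (median 770.2) (-3.47 ± 0.59, adjusted p = 0.000322). All 3 left the groups without overlap. Lymphoma 3 was lowest for Rag1 and Dntt and among the 5 tumours at the floor for Rag2. The lipid-presenting molecule Cd1d1 fell by 1.93 ± 0.12, and Tdrd5 lay at the floor in all 8 tumours against 489, 504, 1054, 1083 and 331 in controls (at least 11.6-fold). The T-cell factor Themis fell by 1.65 ± 0.33 and the chromatin organiser Satb1 by 2.27 ± 0.62. The members that rose were the tetraspanin Cd9 (at least 2.72-fold) and the mast cell protease Cpa3 (0.47 ± 0.15), which did not pass without control 1, 2 or 5. Zbtb16 differed by -0.03 ± 0.17 (adjusted p = 0.9).

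V(D)J recombination joins the segments of antigen receptor genes. Of 12 genes of this process, Rag1, Rag2 and Dntt included, 5 fell and 1 rose, with a median of -0.29. Xrcc5, the Ku80 gene, whose product binds broken DNA ends, read 207, 174, 199, 167 and 225 in controls 1 to 5 and 288 to 1079.8 (median 683) in lymphomas (1.79 ± 0.25, 3.46-fold, adjusted p = 6.11e-05), and its dimer partner Xrcc6 differed by -0.27 ± 0.22 (adjusted p = 0.355). Hmgb2, a DNA-bending cofactor of the recombinase, fell by 0.52 ± 0.13, and the end-joining adaptor Trp53bp1 differed by 0.11 ± 0.15 (adjusted p = 0.562).

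Genes of single-positive thymocytes and of exit from the thymus fell in 24 of 32 members (75.0%) and rose in 1, Runx3 (0.93 ± 0.34), with a median of -1.11. Runx3 did not pass without any 1 of the controls or without lymphoma 3, 4, 5, 7 or 8. Slfn2, a Schlafen gene tied to quiescence, read 1424, 1349, 1286, 1404 and 1257 in controls 1 to 5 and 179 to 398 (median 259) in lymphomas (-2.42 ± 0.17, adjusted p = 9.46e-08). Its relative Slfn1 was at least 7.63-fold lower. Ccr7, the chemokine receptor that guides cells into the medulla, read 593, 567, 400.1, 418 and 495 in controls and 53.5 to 224 (median 57.2) in tumours (at least 6.13-fold lower). S1pr1, the receptor for exit from the thymus, fell by 1.51 ± 0.22, its activator Klf2 fell by 1.13 ± 0.20, Ms4a6b fell by 2.90 ± 0.37 and the integrin Itgae by 1.37 ± 0.16. Ccr4 differed by -0.18 ± 0.27 (adjusted p = 0.624).

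Double-negative stage genes moved both ways. Of 20 members 5 rose and 6 fell, with a median of -0.22. These shares were not far above those of all genes (17.4% higher and 22.7% lower). Rising members outnumbered falling ones in 9 of 33 alternatives. Ptcra, which pairs with the beta chain in the pre-T-cell receptor, read 453, 424, 449, 492 and 465 in controls 1 to 5 and lay at the floor in all 8 lymphomas (at least 8.52-fold lower, adjusted p = 9.85e-12). Lmo2, a bridging factor of early progenitors and a T-cell oncogene, read 53.5, 55.6, 55.8, 55.6 and 77.8 in controls and 119 to 294 (median 203) in tumours (1.67 ± 0.22, adjusted p = 4.27e-05). Lyl1, a partner of Lmo2, rose by 0.88 ± 0.13, and Spi1 and Flt3, which macrophages and dendritic cells also express, rose by 0.85 ± 0.22 and 0.76 ± 0.22. Tal1, another partner of Lmo2, differed by 0.10 ± 0.18 (adjusted p = 0.694). Summed signal of 18 macrophage and dendritic markers was 4781 to 7831 in controls and 11423 to 38030 in lymphomas, and its part in these rises was not tested.

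Of 20 Notch pathway genes 8 fell (40%, against 22.7% of all genes) and 2 rose (10.0%, against 17.4%), with a median of -0.19. Besides Notch1 and Ptcra, a Notch target, Lfng, a glycosyltransferase that tunes the receptor, read 672, 628, 407, 454 and 467 in controls 1 to 5 and 53.5 to 331 (median 161) in lymphomas (-1.92 ± 0.36, adjusted p = 0.000704). Notch3 fell by 1.53 ± 0.36, the co-activator Maml1 fell by 0.80 ± 0.08 and Dtx1, a target and regulator, by 0.83 ± 0.22 with the probe set used, while another probe set of Dtx1 rose by 0.59. Hes5 and the ligand Jag2 rose by 0.70 ± 0.10 and 0.59 ± 0.11. Notch2 differed by -0.03 ± 0.18 (adjusted p = 0.925), and the target Hes1 by -0.21 ± 0.17 (adjusted p = 0.35). E proteins are transcription factors of lymphocyte development that Id proteins block. Of 10 members of this group 2 rose and 4 fell, with a median of 0.15, but 4 rose and 3 fell after centring each array on its median. Id3 read 1301, 1187, 1198, 1286 and 1276 in controls and 113 to 527 (median 289) in tumours (-2.18 ± 0.30, adjusted p = 4.97e-05), and 67.8 to 463 (median 109.9) before transformation. Id2 fell by 1.35 ± 0.33. Of the E proteins themselves Tcf12 fell by 0.77 ± 0.19 and Tcf4 by 0.69 ± 0.20, and Tcf3 rose by 0.28 ± 0.08.

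Signalling chains of the T-cell receptor complex, co-receptors and other T-cell surface receptors comprised 18 tested genes. Of these 15 fell (83.3%) and none rose, with a median of -1.01. Besides Cd3d, Cd3e, Cd3g, Cd247, Cd4, Cd8a and Cd8b1, the list held accessory and co-stimulatory receptors such as Cd2, Cd5, Cd28 and Icos. Without lymphoma 1, 2 or 6 there was 1 that rose. Cd3e, a signalling chain of the receptor, read 4379.7, 3936, 3724, 3662 and 3769 in controls 1 to 5 and 977 to 1544 (median 1295) in lymphomas (-1.60 ± 0.11, adjusted p = 8.55e-08). Cd247, the zeta chain, read 3934, 3731, 4255, 4192 and 3844 in controls and 607 to 1223 (median 1008) in tumours (-2.10 ± 0.16). Cd3d and Cd3g fell by 1.63 ± 0.26 and fell by 1.29 ± 0.13. Of the co-receptor genes, Cd4 fell by 0.66 ± 0.14, Cd8a by 1.20 ± 0.26 and Cd8b1 by 0.73 ± 0.08, and Cd8b1 still read 3812 to 5201 (median 4383) in tumours. The co-stimulatory receptor Icos fell by 0.94 ± 0.16, and Cd27 differed by -0.29 ± 0.16 (adjusted p = 0.166). Of 27 proximal signalling genes 16 fell and none rose, with a median of -0.71. The adaptor Lat read 6072, 6048, 6057, 5953 and 5931 in controls and 2874 to 3436 (median 3231) in tumours (-0.92 ± 0.06, adjusted p = 4.19e-08). The kinases Fyn and Txk fell by 2.03 ± 0.33 and fell by 2.15 ± 0.32, the ubiquitin ligase Cbl by 1.23 ± 0.14 and Plcg1 by 0.71 ± 0.09, and Spry1 differed by 0.00 ± 0.13 (adjusted p = 0.982).

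**Figure D3:**
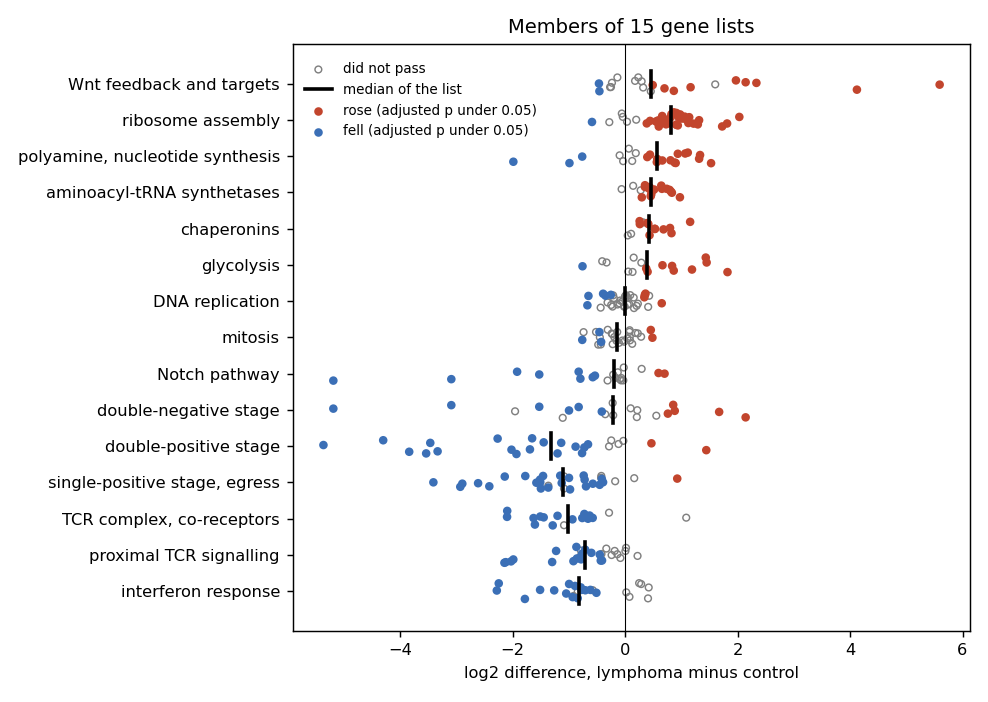
Log2 difference of lymphoma minus control (horizontal axis) for each tested member of 15 gene lists (rows), filled where the adjusted p was under 0.05, with a bar at each list's median. Medians of the ribosome assembly, nucleotide, tRNA synthetase, chaperonin and glycolysis lists lie to the right of 0, those of the double-positive, single-positive and T-cell receptor lists to the left, and replication close to 0. The row of the T-cell receptor complex and co-receptors also holds other T-cell surface receptors.

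Transcription factors of the T lineage and genes altered in T-cell leukaemia fell in 14 of 34 members (41.2%, against 22.7% of all genes) and rose in 5 (14.7%, against 17.4%), with a median of -0.25. The count that fell was 8 after centring each array on its median, 9 without control 1 and 8 without control 4, and with female signals alone 3 fell and 3 rose. Bcl11b, which maintains T-cell identity, read 6456, 5974, 6611, 6438 and 7302 in controls 1 to 5 and 1217 to 2808 (median 1842) in lymphomas (-1.80 ± 0.19, adjusted p = 4.73e-06). Ikzf2, the Helios factor, read 1664, 1631, 1983, 1892 and 1933 in controls and 53.5 to 289 (median 187) in tumours (-3.70 ± 0.44, 13-fold lower). Both factors left no overlap. Rras2, a small GTPase, fell by 2.07 ± 0.32 and was at the floor in lymphoma 6 alone, where the next tumour read 167. Ikzf1, the Ikaros factor, fell by 0.34 ± 0.09, with lymphoma 6 lowest at 2639.6. Evi5 rose at least 3.2-fold. The homeobox gene Hoxa7 differed by 0.06 ± 0.14, with lymphoma 2 low at 188, and Tlx1 by -0.03 ± 0.16 (adjusted p = 0.885).

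Cytokine receptors and their signalling genes fell in 11 of 29 members (37.9%, against 22.7% of all genes) and rose in 3 (10.3%, against 17.4%), with a median of -0.41, and 18 fell within mice 1 and 2 alone. Ifngr1, the ligand-binding chain of the interferon gamma receptor, read 2578, 2610.2, 2073, 2112 and 1834 in controls 1 to 5 and 267 to 736 (median 353) in lymphomas (-2.53 ± 0.22, 5.78-fold lower, adjusted p = 6.09e-07). Il17ra fell by 1.29 ± 0.11, Il21r by 2.22 ± 0.39 and the signal transducer Stat4 by 1.45 ± 0.20. Il27ra fell by 1.01 ± 0.19, with lymphoma 5 lowest at 181. Il9r lay at the floor in 4 of 5 controls and read 125 to 349 (median 248) in tumours (at least 4.11-fold higher). The interleukin 12 receptor chain Il12rb2 read 82.4, 63.5, 53.5, 62.3 and 53.5 in controls and 131 to 705 (median 460.1) in tumours (2.71 ± 0.32), and 677 to 1814 (median 768) before transformation. Il18r1 did not pass, and its highest tumour was lymphoma 4 at 149. Il10ra differed by 0.03 ± 0.14 (adjusted p = 0.887).

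Adhesion and matrix receptors split evenly, with 8 of 20 rising and 8 falling and a median of -0.02 that changed sign in 14 of 33 alternatives. Besides Spock2 and Cadm4, the proteoglycan Sdc1 read 58.3, 71.8, 53.5, 73.8 and 68.0 in controls 1 to 5 and 378 to 989.8 (median 693) in lymphomas (3.31 ± 0.23, 9.89-fold). Itgam, an integrin chain that macrophages also carry, rose by 4.08 ± 0.50, and Cadm1 by 3.11 ± 0.48. Itga6, a laminin receptor chain, read 904, 916, 881, 836 and 1479.6 in controls and 58.8 to 224 (median 132) in tumours (-3.01 ± 0.33, adjusted p = 7.67e-06). Itgal, the leukocyte integrin that binds Icam proteins, fell by 2.84 ± 0.42 and its ligand Icam2 by 1.86 ± 0.18, and Ncam1 differed by 0.09 ± 0.22 (adjusted p = 0.78). Of 15 genes that handle retinoids or bind them 3 rose and 6 fell, with a median of 0.15, and 1 rose without control 4 or without control 5. Stra6, the receptor for retinol-binding protein, lay at the floor in 4 of 5 controls and read 405 to 1662 (median 1039) in tumours (at least 17.2-fold higher, adjusted p = 9.26e-08), and it was at the floor in all 5 mice before transformation. Dhrs3, which turns retinaldehyde back to retinol, read 1004, 916, 1212, 1008 and 1364 in controls and 53.5 to 78.4 (median 53.5) in tumours. The receptor genes Rara and Rxra fell by 0.98 ± 0.23 and fell by 0.67 ± 0.15, the retinaldehyde dehydrogenase Aldh1a2 by 1.03 ± 0.18 and Lrat, which stores retinol as ester, by 0.82 ± 0.21. Rxrg differed by 0.18 ± 0.27 (adjusted p = 0.616).

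Regulators and targets of p53 moved both ways, with 6 of 16 rising and 7 falling and a median of 0.09. Fas, the death receptor, read 837, 804, 628, 633 and 684 in controls 1 to 5 and 53.5 to 349.8 (median 70.9) in lymphomas (-2.87 ± 0.39, 7.3-fold lower, adjusted p = 5.21e-05). Mdm2, the ubiquitin ligase for p53, fell by 0.60 ± 0.10. Besides Cdkn1a, Zmat3 rose by 1.21 ± 0.22, Phlda3 by 0.95 ± 0.14 and Ei24 by 0.67 ± 0.13, and Plk2 differed by 0.08 ± 0.26 (adjusted p = 0.831). In the BCL2 family, which governs mitochondrial cell death, 3 of 14 rose (21.4%) and 4 fell (28.6%), shares close to those of all genes (17.4% and 22.7%), with a median of 0.21 that turned negative in 3 of 33 alternatives. Bcl2, which protects cells, read 754, 769, 543, 515 and 520.1 in controls and 62.1 to 307 (median 222) in tumours (-1.78 ± 0.31, adjusted p = 0.0004). Bcl2l11, the death-promoting Bim, fell by 1.67 ± 0.29 and the protective Bcl2l1 by 1.04 ± 0.18. The death-promoting members Bik and Bad rose by 0.88 ± 0.15 and 0.53 ± 0.10, and Hrk differed by -0.15 ± 0.14 (adjusted p = 0.403). Of 26 genes of DNA damage signalling and repair 3 rose and 4 fell, with a median of -0.01, and 5 rose and 2 fell after quantile normalization. Ddb2, a sensor of ultraviolet damage, read 811, 797, 863, 765 and 643 in controls and 108 to 228 (median 155) in tumours (-2.27 ± 0.18, adjusted p = 2.65e-07), and Xpc of the same pathway fell by 0.95 ± 0.16. The glycosylase Ung rose by 0.49 ± 0.13 and Parp1 by 0.43 ± 0.11, and Pms2 differed by 0.01 ± 0.19 (adjusted p = 0.975).

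Of 24 interferon response genes 15 fell (62.5%) and none rose, with a median of -0.82. Ifi47, an interferon-inducible GTPase, read 2026, 2034, 1441, 1455 and 1472 in controls 1 to 5 and 119 to 704 (median 419.5) in lymphomas (-2.25 ± 0.35, adjusted p = 0.000169). Igtp, a GTPase of the same family, read 1418, 1362, 1589.8, 1697 and 1412 in controls and 168 to 859 (median 299) in tumours (-2.28 ± 0.33), and 1606 to 2303 (median 1768) before transformation. Irf9, a subunit of the interferon-activated factor, fell by 1.05 ± 0.10, the nuclease Isg20 fell by 1.51 ± 0.18 and the RNA sensor Ddx58 by 0.89 ± 0.13. Usp18 was at least 3.44-fold lower, and Ifit3 differed by 0.02 ± 0.12 (adjusted p = 0.911). Of 17 MHC and antigen presentation genes 7 fell and none rose, with a median of -0.42, and within mice 3 and up 3 fell and 1 rose. Tap2, which carries peptides to MHC class I, read 1347, 1353, 1454, 1274 and 1196 in controls and 174 to 610.5 (median 371) in tumours (-1.91 ± 0.29, adjusted p = 0.000123). The immunoproteasome subunits Psmb8 and Psmb9 fell by 1.33 ± 0.24 and fell by 1.58 ± 0.35, while the class II chaperone Cd74 differed by 0.19 ± 0.49 (adjusted p = 0.781). Immediate-early genes, which respond to receptor signals within minutes to hours, fell in 12 of 22 members and rose in 4, with a median of -0.48. The 4 that rose were Gadd45g and Myc, both described above, Egr3 and Ier5. Gadd45g lay highest in the list, at a log2 difference of at least 4.93. Zfp36, which destabilises cytokine mRNAs, read 1148, 1129, 987, 1053 and 1116 in controls and 231 to 395 (median 318) in tumours (-1.82 ± 0.13, adjusted p = 7.96e-08). Egr2 and the phosphatase Dusp2 fell by 2.14 ± 0.29 and fell by 1.30 ± 0.18, and Klf4 differed by -0.10 ± 0.24 (adjusted p = 0.773). Jund fell by 0.67 ± 0.09 with the probe set used and passed at 0.81 with another.

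Markers of thymocytes and of other cell types were measured in the same arrays. All 10 thymocyte markers fell, with a median of -1.45, and their summed signal was 55235 to 60730 in controls and 18049 to 30732 in lymphomas. These 10 genes were all members of lists counted above, so their falls are no separate result. Ptcra was at the floor in all 8 tumours. Macrophage and dendritic markers rose in 12 of 18 members and fell in 2, with a median of 1.22. Lyz2, the macrophage lysozyme, read 934, 978, 514, 839.9 and 1025 in controls 1 to 5 and 2235 to 9499 (median 4461) in lymphomas (2.39 ± 0.30, adjusted p = 2.82e-05), and C1qb and Cd68 rose by 2.34 ± 0.40 and 2.33 ± 0.39. The markers that fell were Csf1r (-0.65 ± 0.15) and Cd14 (-1.17 ± 0.29), and Mrc1 differed by -0.08 ± 0.24 (adjusted p = 0.806). With female signals alone 4 of these 18 rose. Stroma and endothelium markers rose in 9 of 16 members and fell in none, with a median of 0.73 and summed signals of 3012 to 3454 in controls and 5168 to 13828 in tumours. Col1a2, a fibrillar collagen chain, read 84.2, 120.1, 96.5, 129.8 and 93.8 in controls and 195 to 1272 (median 525) in tumours (2.26 ± 0.37), and the matrix protein Sparc rose by 2.46 ± 0.43. The smooth muscle actin Acta2 differed by 0.04 ± 0.29 (adjusted p = 0.933). Within mice 1 and 2 alone 2 of the stromal markers rose. Igfbp7, among the largest rises above, is one of these markers. Lymphoma 8 had the highest sum for both lists, and the part of either cell type in the other results was not tested.

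Among 9 B-cell markers none rose or fell, though their sum ran from 1787 to 15818 in lymphomas against 4915 to 6584 in controls, with lymphoma 3 highest and lymphoma 1 lowest. Without lymphoma 1 there were 2 that rose, without lymphoma 2 or without lymphoma 6 there was 1, and with array weights there were 4. Pax5, the defining B-cell factor, differed by -0.06 ± 0.20 (adjusted p = 0.834), beside the rise of Pou2af1. Of 10 granulocyte markers 5 fell and none rose, with a median of -0.58, and 2 fell within mice 3 and up alone. Without control 5, lymphoma 1 or lymphoma 7 there was 1 granulocyte marker that rose. Their sums were 3566 to 10233 in controls and 2088 to 4821 in lymphomas. Ltf, a neutrophil granule protein, read 463, 555, 449.6, 719 and 652 in controls and 205 to 385 (median 266) in lymphomas (-1.04 ± 0.17). Thymic epithelium markers fell in 6 of 14 members and rose in 1, the chemokine Cxcl12 (0.67 ± 0.14), with a median of -0.28 and sums of 2815 to 4634 in controls and 2494 to 3620 in tumours. Prss16, a protease of cortical epithelium, read 722, 766, 217, 136 and 125 in controls 1 to 5 and 53.5 to 79.5 (median 64.9) in tumours (-2.15 ± 0.40, adjusted p = 0.000614), with controls 1 and 2 well above the other controls. Foxn1, the defining factor of these cells, fell by 0.78 ± 0.18. Without lymphoma 1 or without lymphoma 2 the epithelial markers that rose were 2. Of 9 NK and gamma-delta markers 2 rose and 5 fell, and 3 fell without control 3 or without control 4. Trgv4, a gamma chain segment, fell by 2.89 ± 0.29. Of 6 erythroid markers 1 rose and 2 fell, of 2 adipose markers 1 rose (none without control 2, 4 or 5), and of 4 sex-linked genes 1 fell (2 without control 1 or without control 2).

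**Figure D4:**
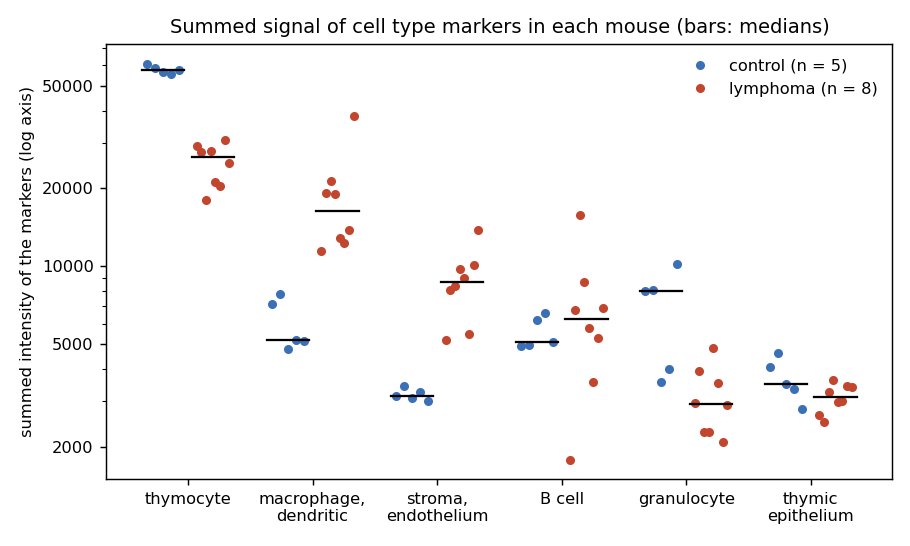
Summed intensity of 6 marker lists (vertical axis, log scale) in 5 controls and 8 lymphomas, with bars at the medians. Thymocyte, macrophage and stromal sums do not overlap between the groups, and among these lists B-cell sums span the widest range in the tumours.

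Genes were last grouped by chromosome, to see whether those of a chromosome lay together above or below the rest in single tumours. For each mouse the median difference from a reference was taken over the genes of a chromosome, less that of all genes, for 13986 genes. The groups were compared with the mean of all 13 mice as reference, which does not use the group labels (added once the data had been seen). In an exact permutation test (two-sided, adjusted over 20 chromosomes) 3 of 20 differed: chromosome 17 by -0.06 (adjusted p = 0.0104), 19 by 0.03 (0.0104) and X by -0.06 (0.0104), where the smallest unadjusted p the design allows is 0.000777. Chromosome 4 differed by 0.02 and did not pass (exact permutation adjusted p = 0.173). All 3 shifts were under 0.1 on the log2 scale. Chromosome 17 passed whichever 1 mouse was left out, 19 did not without control 1, 3, 4 or 5 or lymphoma 1 or 3, and X did not without control 1 or lymphoma 3 or 6. With no filter on low values only chromosome 17 passed, and over genes with a mean log2 signal of at least 9 only chromosome 19. The groups also differed in how many mice read as female. The medians of single mice below were taken against the control mean, so controls lie near 0 by construction and no test is given for them. Over all genes tested, chromosome 15 had the widest range among the tumours. Its 582 genes, Myc among them, had medians of 0.08, 0.17, 0.12, 0.20 and 0.10 in lymphomas 4 to 8, of -0.07, 0.02 and 0.02 in lymphomas 1 to 3, and of -0.01 to 0.02 in controls. Against the mean of all mice the difference between the groups was 0.07 and did not pass (exact permutation adjusted p = 0.278). With the brighter genes the medians of chromosome 15 were 0.06, 0.25, 0.15, 0.29 and 0.09 in lymphomas 4 to 8 and -0.07, 0.04 and 0.05 in lymphomas 1 to 3 (206 genes), and there chromosome 18 had a wider range, from -0.27 in lymphoma 6 to 0.12 in lymphoma 1. In lymphoma 6 the genes of chromosome 12 had a median of -0.11, and in lymphoma 4 those of chromosome 6 one of 0.09. Copy number was not measured here.

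**Figure D5:**
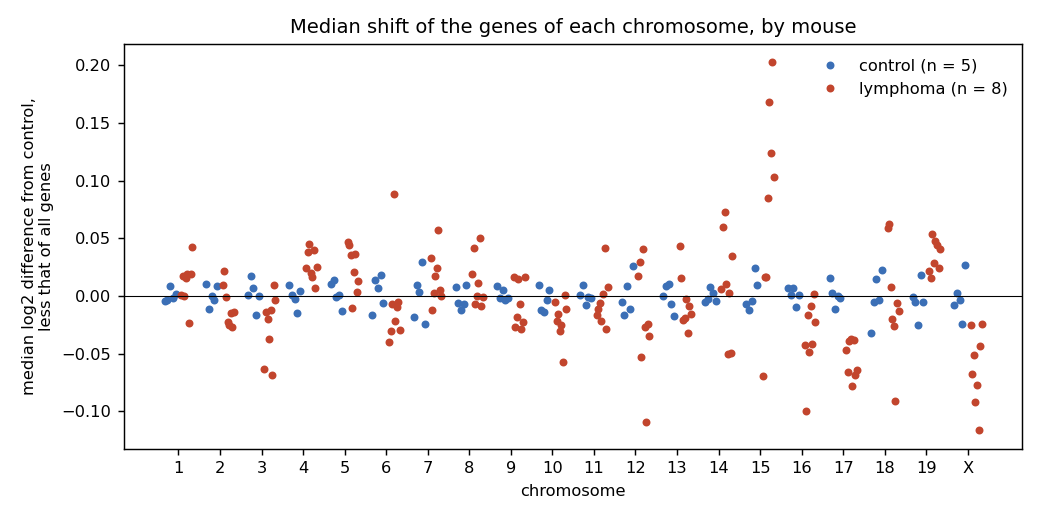
Median log2 difference from the control mean over the genes of each chromosome, less that of all genes (vertical axis), by chromosome (horizontal axis) for 5 controls and 8 lymphomas. Lymphomas 4 to 8 lie at 0.08 to 0.20 on chromosome 15, above all controls.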

How the data were processed

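RNA of 13 mice was measured on Affymetrix Mouse Expression 430 arrays. The deposited values are intensities that the authors computed with dChip, per the labels, on a linear scale; no source used here gives its version or how arrays were scaled to each other. Of 811818 deposited values 1.2% were blank, and control 1 had 605 negative values and no blanks where the other arrays had at most 1 negative value.

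Blank, negative and low values were set to the 20th percentile (53.5) before taking log2. Probe sets with 1 gene symbol in the platform annotation (34945 of 45101; 932 had several, 9160 none and 64 were array controls) gave 18193 genes, each by its probe set of highest mean, with symbols updated through RefSeq. A gene was kept when above 109 (the 40th percentile) on at least 5 of the 18 arrays, which left 14019. Groups were compared with limma 3.58.1 in R 4.3.3 (2 groups, empirical Bayes with an intensity trend, Benjamini-Hochberg over all genes tested, threshold 0.05), tested on simulated data. There, changes were planted in genes well above the floor. Recovery was 29.9% of 67 log2 changes of 0.5, 80.6% of 67 of 1 and 95.5% of 66 of 2. Of all calls in the simulation 6.16% were false. It drew noise independently for each gene, with the same spread in both groups, and changed few genes. The data differ in these respects, so these rates need not hold for them. A fold is given as a lower bound where at least 3 controls or at least 4 lymphomas were at the floor.

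The groups compared, the gene lists and the named genes were chosen with earlier results of these data known. The naming rule took the 12 largest rises and falls without overlap, Ctnnb1, Axin2 and Myc, in each list up to 6 members of smallest and 1 of largest adjusted p, and members of the Wnt, leukaemia and cytokine lists with 1 tumour apart. It gave 255 genes, most of which are printed, and some other list members were named after their values were seen. Chromosome medians were compared with an exact permutation test, as deviations from the mean of all mice. Alternatives covered floor, scaling, probe sets, filter, model, mouse numbers, sex signals and leaving out mice. Precision is limited by the number of arrays.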

Additional observations from a re-analysis of the deposited data

Results flagged for a closer look

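Each gene named in the text, each chromosome median and each summed marker signal was examined over the 5 controls and over the 8 lymphomas. Of these 554 groups of values, 42 held 1 mouse whose gap to the nearest other was above Dixon's 95% critical value. Chance alone gives about 1 in 20 groups. Some genes of the Wnt, leukaemia and cytokine lists were named because 1 tumour passed this same cutoff. The count of 42 therefore cannot be read against that rate. Values are signals, each with that of the nearest mouse of its group. For Chrna9 in lymphoma 7, Il9r in control 5, Inava in control 2 and Stra6 in control 4 every other mouse of the group was at the floor, so any value above it stands apart by construction.

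Lymphoma 6 was apart below for Apc at 165 (nearest 297), Cct8 at 2785 (nearest 3369.8), Cd3d at 721 (nearest 1772), Ikzf1 at 2639.6 (nearest 3339), Kif11 at 369 (nearest 914), Kif23 at 277 (nearest 612), Mdm2 at 868 (nearest 1111), Rbl1 at 454 (nearest 822), Rras2 at 53.5 (nearest 167) and Themis at 375 (nearest 1092). Control 5 was apart above for Il9r at 64.6 (nearest 53.5), Itga6 at 1479.6 (nearest 916) and Lmo2 at 77.8 (nearest 55.8). Control 5 was apart below for Cd14 at 158 (nearest 324), Gsk3b at 687 (nearest 1246), Il17ra at 1789 (nearest 2074) and Tcf3 at 1154 (nearest 1269). Lymphoma 3 was apart above for Vars at 1852 (nearest 1378). Lymphoma 3 was apart below for Cd8a at 1188 (nearest 2574), Rag1 at 661 (nearest 1990.2), Slc16a1 at 1192 (nearest 2039) and Xist at 72.7 (nearest 1109.5). Lymphoma 7 was apart above for Arpp21 at 454 (nearest 132), Cdc45 at 575 (nearest 419.6) and Chrna9 at 94 (nearest 53.5). Lymphoma 7 was apart below for Pgam1 at 1596 (nearest 2077). Control 2 was apart above for Cpeb1 at 66.9 (nearest 56.4) and Inava at 55.4 (nearest 53.5). Control 2 was apart below for Mycl at 94.9 (nearest 127). Lymphoma 1 was apart above for Aldh1a2 at 239.8 (nearest 160.5), Rxra at 562 (nearest 393) and Wwc1 at 3728 (nearest 2551). Control 3 was apart below for Lyz2 at 514 (nearest 839.9) and S1pr1 at 231 (nearest 342). Lymphoma 8 was apart above for Cd14 at 334 (nearest 153) and Cd68 at 1545 (nearest 603). Control 1 was apart below for Jag2 at 207 (nearest 256). Control 4 was apart above for Stra6 at 66.2 (nearest 53.5). Lymphoma 2 was apart below for Hoxa7 at 188 (nearest 241). Lymphoma 4 was apart above for Il18r1 at 149 (nearest 76.4). Lymphoma 5 was apart below for Il27ra at 181 (nearest 314). For the chromosome 6 median, lymphoma 4 stood apart at 0.088, with the nearest at -0.0048.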

How the results depend on the processing

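For 298 genes named by the rule or in the text, 253 of which passed, 20 other settings gave 5933 values. Of these, 5637 stayed on their side of the threshold, 255 no longer passed and 32 passed newly. A further 9, all of genes that had passed, turned sign. Among genes that had not passed, a change of sign was not counted. The 9 were Fen1 (0.31), Jund (0.81), Btrc (0.54), Dtx1 (0.59) and Nat10 (0.63) with the probe set of largest interquartile range, E2f5 (0.13), Jund (0.073) and Nat10 (0.018) with the mean of all probe sets, and Kif2c (-0.047) within mice 1 and 2 alone. Leaving out 1 mouse gave 3874 values, of which 56 no longer passed, in 17 genes (Btrc, Ccna2, Cdk4, Cpa3, Dkk1, Espl1, Fabp4, Fanca, Fancg, H2ax, Kif2c, Klrd1, Mxd1, Pole, Runx3, Slc38a2 and Tle2), and 4 passed newly.

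The number of genes that passed was 4728 to 6095 when 1 mouse was left out, 7678 with array weights, 7228 without lymphomas 1 and 2, 4347 with the sex signal as covariate and without lymphoma 4, and 1935 with female signals alone, which leaves 2 controls. The number that also reached a log2 difference of 1 was 1358 to 1536 when 1 mouse was left out. The number without overlap, 2893 to 3439 when 1 mouse was left out, was 9763 within mice 1 and 2 alone, 5579 within mice 3 and up, 4677 without lymphomas 1 and 2 and 4956 with female signals alone. Fewer mice overlap less often by construction. The probe set of largest interquartile range gave 6227 passing genes, of which 100 passed in the opposite direction to that given above, and the mean of all probe sets 5218, of which 12 did.

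The mouse number as replicate block gave 4929 passing genes, and a block for the set of mouse numbers (1 and 2, or 3 and up) 6377. Deviations of same-numbered mice correlated at 0.272, 0.004, 0.008, 0.202 and -0.069, and the labels tie no control to a tumour, so the numbers were not taken as pairs.

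With the control mean as reference, as first planned, 4 chromosomes passed, but controls then lie near 0 by construction and the permutation p does not hold, so the report gives the 3 found against the mean of all mice. The 4 became 0 with no filter on low values, 0 within mice 1 and 2 alone, 0 within mice 3 and up, where small groups limit the permutation test, and 0 over genes with a mean log2 of at least 9. Leaving out 1 mouse gave 1 to 5, with 1 without control 3 and 2 without control 5. The cause was not tested for any of these changes. Signals near the floor limit what can be seen of low genes.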

Other observations

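Among the mice before transformation, mouse 3 stood apart for several genes of the comparison. It read 1473 for Wif1, where the other 4 such mice were at the floor, and 541 for Pou2af1 against 53.5 to 82.1 in the others. It read 792 for Spock2 against 73.0 to 158 and 278 for Lmo2 against 53.5 to 72.8. For Myc it read 517, where the others were between 132 and 223, still below the lowest lymphoma at 1249.8. These values were singled out after they were seen.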
